A study of Mus musculus with 2 samples.

Results

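The genes described here encode 7 C-type lectin-like receptors of natural killer (NK) cells: Klre1, Klri1, Klri2, Klrb1a, Klrb1b, Klrb1c and Klrb1f. They were taken by symbol, with no threshold on a measured value, and all 7 were among the 31053 genes listed in both libraries. The study compared NK cells sorted by fluorescence from the brains of 8-month-old female mice, with 1 library of untreated wildtype C57BL/6 animals and 1 of untreated 3xTg-AD animals (3XTg-AD in the labels). 3xTg-AD mice are a model of Alzheimer's disease whose alleles include mutant human APP and MAPT transgenes, driven by a Thy1 element in neurons. The sources used here do not give the number of animals behind each library, the genetic background of the 3xTg-AD mice or the antibodies of the sort. Since each group is 1 library, no difference below has a replicate check, and intervals cover counting error only.

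All 7 receptors belong to the NK gene complex, a cluster of lectin-like receptor genes. Klre1 encodes a protein without a signalling motif of its own that pairs with either Klri protein. The Klri1 product carries an inhibitory motif that recruits the phosphatase SHP-1, and the Klri2 product lacks it and joins an activating complex. The Klrb1 genes encode the NKR-P1 family: Klrb1c makes NKR-P1C, the NK1.1 antigen often used to sort mouse NK cells, which signals through the adaptor Fcer1g. Klrb1b makes the inhibitory NKR-P1B, which binds the Clec2d product Clr-b, a lectin on healthy cells. Klrb1f makes NKR-P1F, which binds the Clec2i product among other Clec2 proteins, and Klrb1a makes NKR-P1A, of activating type.

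The genes lie within 1.13 Mb of chromosome 6 (GRCm38, GENCODE M21). From the lower coordinate up they are Klrb1a (chr6:128609227-128623533, minus strand), Klrb1c (chr6:128778485-128789215, minus), Klrb1b (chr6:128813706-128826331, minus) and Klrb1f (chr6:129045901-129057464, plus). Klre1 (chr6:129577905-129585827, plus), Klri1 (chr6:129697218-129717132, minus) and Klri2 (chr6:129729041-129740484, minus) follow. Klri1 and Klri2 are 11908 bases apart, and their longest transcripts were 87.3% identical over 801 aligned bases. Those of Klrb1a and Klrb1c were 90.2% identical over 1105 bases. Even so, few stretches of 75 bases, the read length, were common to a pair. Klri1 shared 2.62% of its 75-base words with Klri2, and Klrb1a shared 2.25% with Klrb1c. These shares are over whole transcripts, whereas the libraries are of the 5′ type. How distinct the sequenced reads of these pairs were was not measured. The annotated gene Gm44511 runs over both Klrb1c and Klrb1b and holds 23.8% of the Klrb1b words and 11.4% of the Klrb1c words. NK barcodes held 4 UMIs of it in the wildtype library and 1 in the other. The sources used here do not give how shared reads were assigned, so the Klrb1b and Klrb1c counts are uncertain to that extent.

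Klrb1a and Klrb1c are shown by the sequence before their RefSeq starts because these were the most alike promoters of the set, while the ratios of the 2 genes below went in opposite directions in ILC1-like barcodes. RefSeq promoter windows (GRCm38.p6, 300 bases) were found for 6 of the 7 genes, all but Klri2. The Klrb1a and Klrb1c windows were 90.8% identical over 260 aligned bases. Both stretches are on the minus strand, chr6:128622935-128623184 for Klrb1a and chr6:128788642-128788886 for Klrb1c. They overlap no annotated exon and lie in an intron of a longer GENCODE transcript of the same gene. Capitals mark the RUNX letters ACCACA and the ETS letters ACTTCC on either strand.
Klrb1a: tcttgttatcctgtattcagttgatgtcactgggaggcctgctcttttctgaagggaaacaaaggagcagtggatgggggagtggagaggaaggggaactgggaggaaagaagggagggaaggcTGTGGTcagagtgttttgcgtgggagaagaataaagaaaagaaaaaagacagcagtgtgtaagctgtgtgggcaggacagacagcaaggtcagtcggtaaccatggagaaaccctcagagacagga
Klrb1c: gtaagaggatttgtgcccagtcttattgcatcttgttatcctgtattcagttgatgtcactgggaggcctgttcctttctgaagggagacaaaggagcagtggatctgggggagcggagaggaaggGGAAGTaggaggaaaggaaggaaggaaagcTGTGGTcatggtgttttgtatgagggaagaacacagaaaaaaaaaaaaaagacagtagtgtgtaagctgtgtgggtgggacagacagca
The RUNX letters lie at 126 bases before the Klrb1a start and 89 bases before the Klrb1c start, and ETS letters lie in the Klrb1c stretch at 119 bases before its start. The Klrb1a window held ETS letters after its start, outside the stretch printed. Over the whole windows of the 6 genes, 3 held ACCACA, 4 held ACTTCC and 1 (Klre1) held the T-box letters TCACAC, both strands counted. Of 27025 RefSeq promoters of the same length, 16.9%, 24.1% and 14.4% held these letters. A match is a description of the sequence and shows no binding.

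The wildtype library held 1709 barcodes and the 3xTg-AD library 1695, with medians of 2930 and 2846 unique molecular identifiers (UMIs, each counting 1 captured transcript molecule) and totals of 5559995 and 5468455. After filters, 1649 and 1663 barcodes were kept, and the libraries shared 1 barcode sequence. NK barcodes numbered 1480 and 1508 (89.8% and 90.7% of those kept). ILC1-like barcodes, those with at least 3 summed UMIs of Itga1, Cxcr6, Inpp4b, Gzmc and Tnfsf10, numbered 90 and 71. This class is a range of a marker sum and not a sharp type: 19 and 23 of its barcodes held exactly 3 such UMIs, and 36 and 27 NK barcodes held 2. Type 1 innate lymphoid cells (ILC1) are tissue-resident relatives of NK cells, and the class matched some of their markers and not others. The NK integrin gene Itga2 was at 9.61 CPM (UMIs of the gene per 1000000 UMIs of the summed barcodes) against 78.0 in wildtype NK barcodes, and at 9.94 against 65.5 in 3xTg-AD. Eomes, often low in such cells, was at 198 against 214 CPM and at 201 against 237 CPM. ILC1-like barcodes were deeper, with median UMIs of 5355 and 5551 against 2866 and 2790.5 in NK barcodes. Their make-up differed between libraries, with Gzmc at 1497 CPM in wildtype and 323 CPM in 3xTg-AD. The T cell gene Cd3e had 1 and 0 UMIs in NK barcodes and 0 in ILC1-like ones, and the microglial gene C1qa had 1 and 5 UMIs in NK barcodes.

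Klrb1c was the most abundant of the 7 genes in NK barcodes of both libraries and Klri1 the least. Levels are in CPM. A UMI counts a molecule whatever the transcript's length, so levels were compared between genes without a length correction. Klrb1c stood at 1141 CPM in wildtype and 1478 CPM in 3xTg-AD NK barcodes. Klre1 followed at 703 and 854 CPM. Both libraries thus had the NK1.1 gene above the shared Klri partner gene, which in turn was above the other 5. Klrb1a was at 397 and 391 CPM, and Klrb1f at 237 and 247 CPM. Klri2, the activating partner, was at 195 and 362 CPM. The inhibitory Klrb1b was low, at 58.5 and 84.5 CPM, and the inhibitory Klri1 lower still, at 17.6 and 21.3 CPM. In wildtype Klri2 stood below Klrb1f, and each neighbour in the order differed beyond counting error, the closest being Klrb1f over Klri2 with a ratio of UMIs of 1.22 (exact binomial interval 1.11 to 1.33). In 3xTg-AD the order of these 2 was reversed, and the closest neighbours were Klrb1a and Klri2, with 1794 and 1662 UMIs, a ratio of 1.08 (1.01 to 1.15).

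**Figure D1:**
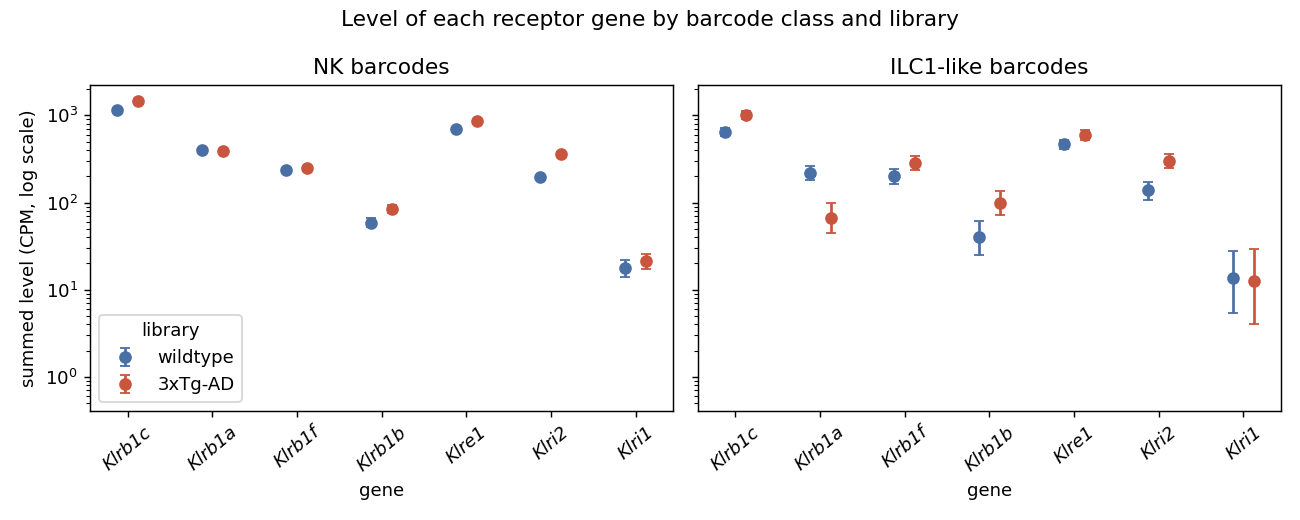
Summed level in CPM (log axis) of the 7 genes in NK barcodes (left) and ILC1-like barcodes (right), with points for the wildtype (blue) and 3xTg-AD (red) libraries and bars for exact 95% Poisson intervals. Klrb1c and Klre1 lead in both classes, and Klrb1a in 3xTg-AD ILC1-like barcodes, at 67.1 CPM, lies far below its other values.

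Shares of barcodes with a UMI were compared after thinning each barcode to 1400 UMIs, which kept 1365 wildtype NK barcodes and 1433 from 3xTg-AD (115 and 75 were shallower). Klrb1c was then found in 77.1% (74.7 to 79.3) of wildtype NK barcodes and 85.1% (83.1 to 86.9) of those from 3xTg-AD, against 92.3% and 96.8% before thinning. Klre1 was found in 63.4% (60.8 to 65.9) and 70.5% (68.0 to 72.8), against 83.6% and 86.7% before. Klri2 was found in 23.4% (21.2 to 25.8) and 38.9% (36.3 to 41.4), against 35.0% and 55.0% before. For these 3 genes the 3xTg-AD interval lay above the wildtype one. Intervals overlapped for Klrb1a (41.4% and 39.4%), Klrb1f (26.4% and 26.9%), Klrb1b (7.77% and 9.91%) and Klri1 (2.05% and 2.65%). Their shares before thinning were 60.7% and 57.0% for Klrb1a, 46.3% and 47.3% for Klrb1f, 15% and 20.4% for Klrb1b, and 4.12% and 5.31% for Klri1. Of the 7 shares, that of Klri2 had the widest gap between the libraries. The intervals are exact Clopper-Pearson intervals at 95%.

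Within NK barcodes the counts of each gene were spread somewhat wider than random sampling of 1 common level gives, for which the variance equals the mean. At equal depth the variance over the mean was 1.22 and 1.28 for Klri2, 1.27 and 1.34 for Klrb1c, 1.17 and 1.23 for Klrb1a, and 1.07 and 1.13 for Klre1, in wildtype and 3xTg-AD. It was 1.14 and 1.15 for Klrb1f and 1.27 and 1.14 for Klrb1b. The scarce Klri1 had the widest value in wildtype, 1.46, and 1.07 in 3xTg-AD, and 18.5% and 13.3% of its UMIs lay in 5 barcodes. The 5 barcodes with most Klri2 UMIs held 3.56% of its wildtype and 2.17% of its 3xTg-AD NK counts. Barcodes with 3 or more UMIs of Klrb1c were 24.7% in wildtype and 37.2% in 3xTg-AD, and those of Klri2 were 0.952% and 4.12%.

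**Figure D2:**
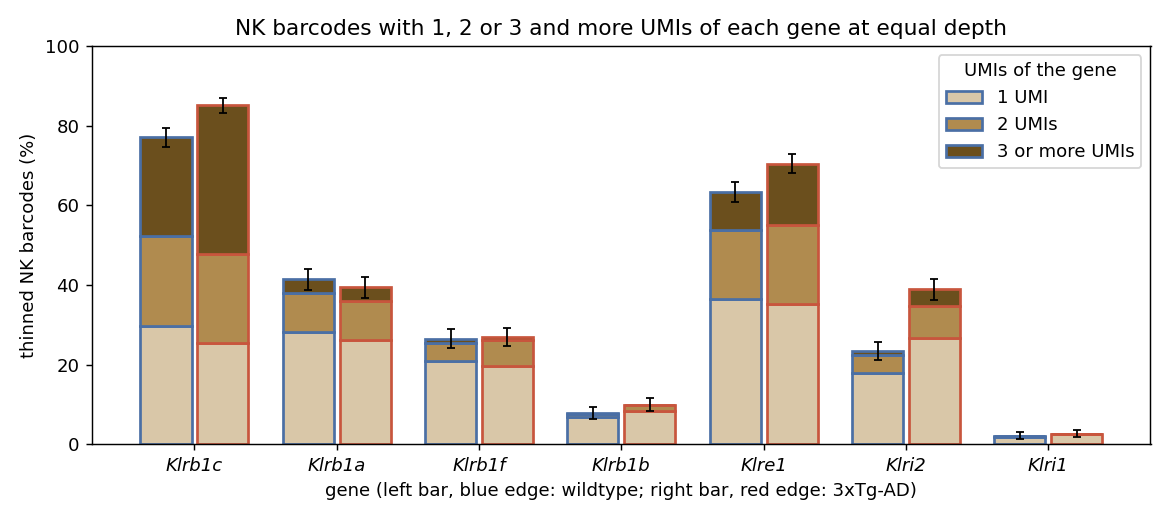
Percent of thinned NK barcodes with 1, 2 or at least 3 UMIs of each gene, stacked, for wildtype (left bar of each pair) and 3xTg-AD (right bar), with bars for the exact 95% interval of the total share. The total for Klri2 is 23.4% against 38.9%, while the pairs for Klrb1a and Klrb1f overlap.

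A level of free RNA could not be read independently of NK transcripts. Of the microglia-like barcodes, 4 of 8 in wildtype and 15 of 32 in 3xTg-AD had 5 or more UMIs of the NK genes Ncr1, Nkg7, Klrk1, Klrd1 and Prf1, and these held members. Klrb1c was at 772 and 675 CPM in them and Klre1 at 496 and 720 CPM, in wildtype and 3xTg-AD, and 86.7% of the 15 held a Klre1 UMI, at a median depth of 6000 UMIs. In the other 4 and 17, with medians of 1682.5 and 2143 UMIs, none of the 7 genes had a UMI. In those, a count of 0 allows up to 372 CPM in wildtype and 68.4 CPM in 3xTg-AD, and over 14 thinned 3xTg-AD barcodes a share of up to 21.4%. They were set apart by their low NK transcripts, so this limit places no gene above free RNA. Whether the first kind holds doublets or free RNA was not tested. T-like barcodes (37 and 36) also held these transcripts, with Klrb1c at 534 and 769 CPM.

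To see how the receptors differed between the brains, 3xTg-AD was set over wildtype in NK barcodes (4593004 and 4613463 UMIs). Klri2 was higher in the 3xTg-AD library at a ratio of 1.86 (95% exact binomial interval 1.71 to 2.02). Klrb1b, which stood at 58.5 and 84.5 CPM, had a ratio of 1.44 (1.23 to 1.69). Klrb1c and Klre1 had smaller ratios, 1.30 (1.25 to 1.34) and 1.22 (1.16 to 1.27). Klrb1a and Klrb1f were close to 1, at 0.984 (0.921 to 1.05) and 1.04 (0.957 to 1.13). Klri1, with 81 and 98 UMIs, had 1.22 (0.896 to 1.65). Of the 7 genes 1, Klri2, was past 1.5-fold and higher, and 0 were past 1.5-fold and lower. Of all 7186 genes with 100 or more UMIs, 3.51% lay past that fold upward and 2.41% downward. The members' median log2 ratio was 0.28, the value of Klri1, against 0.05 for all genes. Members were chosen with earlier results of these data known, so no contrast with all genes is drawn from it. Centred on the median gene, the count over all genes went from 252 higher and 173 lower to 187 and 218, while Klri2 stayed the 1 member past the fold.

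The ratio of Klri2 was above 1 at each of 4 maturation stages of NK cells, with an interval that reached below 1 at the smallest stage. Stages were read from at least 1 UMI of Cd27, which marks less mature cells, and of Klrg1, which marks mature cells. Cd27 had 183 UMIs in the 1480 wildtype and 158 in the 1508 3xTg-AD NK barcodes. A barcode called negative is thus one in which no UMI was found, and the stages may be mixed. Klri2 stood at 438 CPM in 3xTg-AD and 211 CPM in wildtype among Cd27+ Klrg1- barcodes, a ratio of 2.07 (1.58 to 2.74). In Cd27- Klrg1+ barcodes it was at 300 and 168 CPM, a ratio of 1.79 (1.58 to 2.03). In Cd27- Klrg1- barcodes it was at 427 and 226 CPM, a ratio of 1.89 (1.68 to 2.14). The small Cd27+ Klrg1+ stage (38 and 29 barcodes) had 1.49 (0.935 to 2.43). Klrb1c likewise had 1.41, 1.29 and 1.30 in the 3 larger stages and 1.01 (0.823 to 1.24) in the smallest. Among Cd27+ Klrg1- barcodes the scarce genes were counted few times: Klrb1b had 32 UMIs in 3xTg-AD against 19, a ratio of 2.10 (1.15 to 3.92), and Klri1 had 15 against 6, a ratio of 3.12 (1.14 to 9.80). Klre1 had 1.24 and 1.27 in the Cd27- stages and 1.03 (0.868 to 1.22) in Cd27+ Klrg1- barcodes. Weighting the stages as in wildtype gave the same count of 1 member past the fold.

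**Figure D3:**
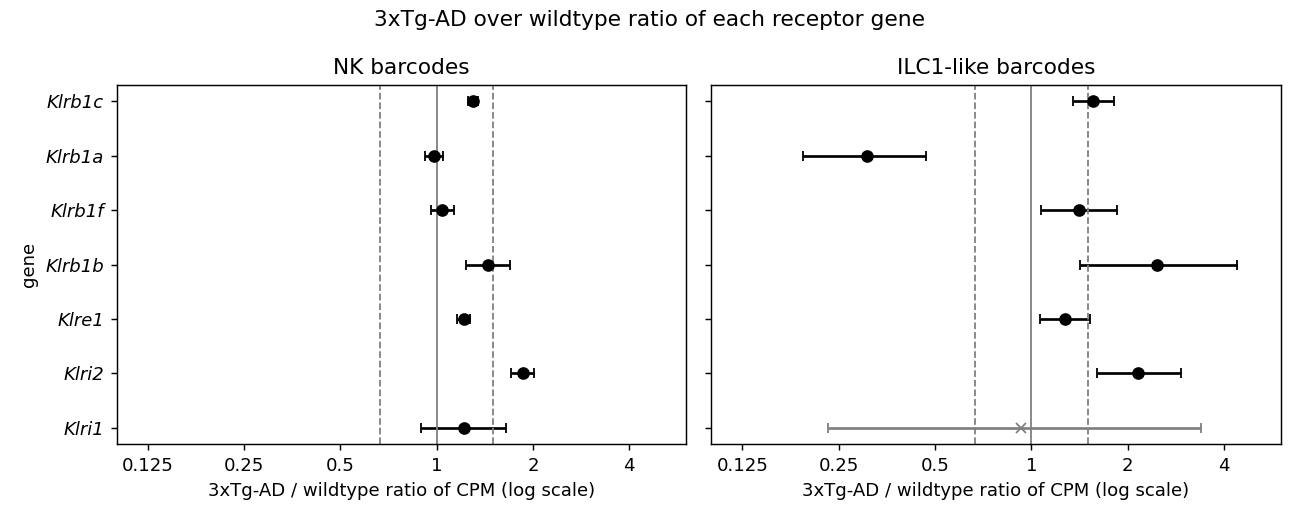
Ratio of CPM, 3xTg-AD over wildtype, on a log axis for each gene in NK (left) and ILC1-like (right) barcodes, with exact 95% binomial intervals, a solid line at 1 and dashed lines at 1.5-fold in each direction. Klri2 lies beyond 1.5 in both panels, and Klrb1a is at 0.984 on the left and 0.306 on the right (grey cross: under 50 UMIs).

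Genes that act with these receptors were read from fixed lists in NK barcodes. Of 10 signalling partners measured, 0 were past 1.5-fold in either direction, with a median log2 ratio of 0.08. Among all genes 3.51% were past it higher and 2.41% lower, so a count of 0 in so short a list is no result about the partners. The largest ratios were those of Ptpn6, which encodes SHP-1, at 1.36 (1.22 to 1.52), and of Inpp5d, which encodes the phosphatase SHIP-1, at 1.21 (1.07 to 1.38). Fcer1g, the adaptor of the Klrb1c product, was at 3645 CPM in wildtype and 4106 CPM in 3xTg-AD, a ratio of 1.13 (1.10 to 1.15). Of 6 Clec2 ligand genes listed, 2 were measured: Clec2d at 0.883 (0.821 to 0.951) and Clec2i at 1.32 (1.05 to 1.65). Of 5 NKG2 and CD94 genes, 1 was past the fold higher and 1 lower, and of 14 maturation genes 0 were higher and 2 lower, Gzmb (0.523) and Cx3cr1 (0.666). In ILC1-like barcodes 0 of 8 measured partners and 0 of 2 measured ligand genes were past the fold between libraries, beside 4.9% higher and 5.51% lower among all genes.

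Neighbouring genes on the chromosome did not share 1 direction. Between Klrb1a and Klri2, 13 further genes had 100 UMIs, of which 2 were past 1.5-fold higher and 2 lower. The shares among all genes were 3.51% and 2.41%. Klrc3 and Klrc2, NKG2 family genes between Klre1 and Klri1, had ratios of 0.201 (0.156 to 0.257) and 1.55 (1.43 to 1.68). Klrd1 and Klrk1, which encode CD94 and NKG2D, lie directly after Klre1 and had 1.02 (0.970 to 1.08) and 1.04 (0.995 to 1.08). Klrc1, the next gene before Klri1, had 0.887 (0.831 to 0.947). The others past the fold, named after their values were seen, were Cd69 at 0.611 (0.448 to 0.830) and the antisense gene Gm15987 at 3.54 (2.20 to 5.89). The sources used here do not state whether strand was used in counting, so reads of Gm15987 and of genes opposite it may be mixed. The order along the chromosome thus put ratios far above and far below 1 within the same interval of the NK gene complex.

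**Figure D4:**
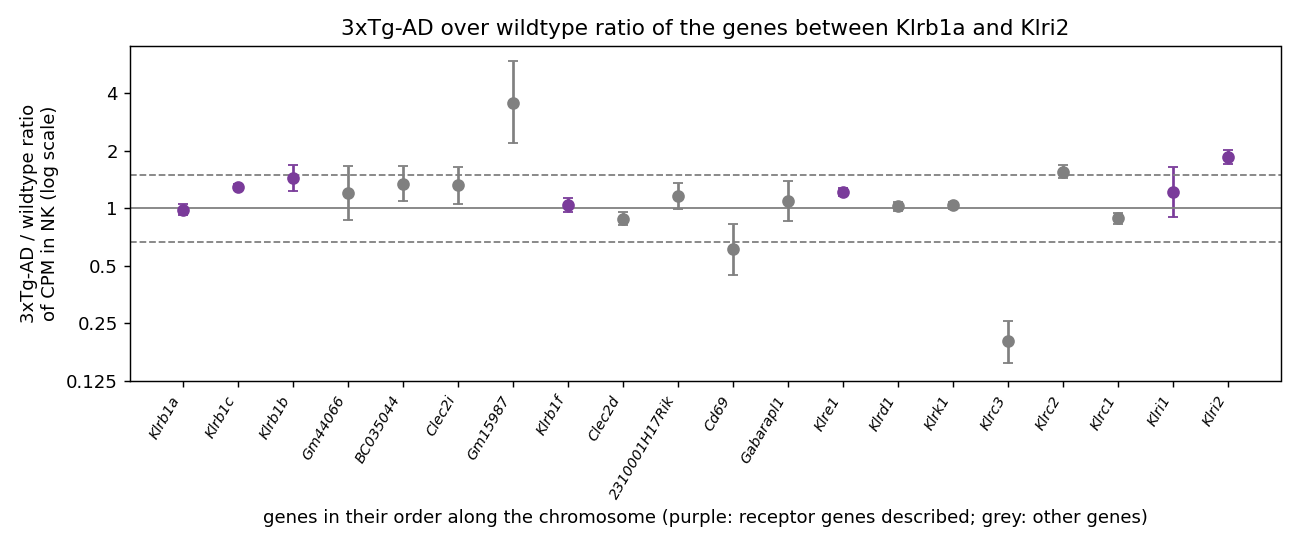
Ratio of CPM, 3xTg-AD over wildtype, in NK barcodes (log axis, exact 95% binomial intervals) for the genes with 100 UMIs from Klrb1a to Klri2, in their order along the chromosome. Purple points are the 7 receptor genes and grey points 13 others, and Klri2 at 1.86 stands in the same region as Klrc3 at 0.201.

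Among wildtype barcodes, Klrb1c, Klrb1a and Klre1 were lower in ILC1-like than in NK barcodes. Klrb1c was at 649 against 1141 CPM, a ratio of 0.569 (0.508 to 0.636). Klrb1a was at 219 against 397 CPM, a ratio of 0.552 (0.452 to 0.667), and Klre1 at 465 against 703 CPM, a ratio of 0.661 (0.578 to 0.754). These 3 of 7 genes were past 1.5-fold lower and 0 higher, beside 23.9% lower and 9.49% higher among all 7421 genes with 50 UMIs. Klri2 was at 138 against 195 CPM (0.710, 0.550 to 0.903) and Klrb1f at 202 against 237 CPM (0.850, 0.689 to 1.04). Klrb1b had 0.689 (0.420 to 1.08) and Klri1, with 7 ILC1-like UMIs, 0.766 (0.299 to 1.65). The median of all genes was itself shifted, at a log2 ratio of -0.17 in wildtype and -0.26 in 3xTg-AD. Relative to that median, Klrb1a and Klrb1c were at log2 ratios of -0.68 and -0.64 and stayed past the fold, and Klre1, at -0.42, did not. Centring took the count over all genes from 704 higher and 1775 lower to 1106 and 1283. Of the 10 partners, 2 were past the fold lower in each library. Cd247, which encodes the CD3 zeta chain, was at 0.251 (0.167 to 0.363) and 0.282 (0.178 to 0.425). The kinase gene Syk was at 0.534 (0.294 to 0.898) and 0.623 (0.344 to 1.05). Beside 23.9% lower among all genes in wildtype and 30.3% in 3xTg-AD, 2 of 10 is no result about the partners.

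In 3xTg-AD, Klrb1a was far lower in ILC1-like than in NK barcodes, at 67.1 against 391 CPM, a ratio of 0.172 (0.113 to 0.251). Relative to the median gene its log2 ratio was -2.28. Klrb1c was at 1014 against 1478 CPM, a ratio of 0.686 (0.619 to 0.758), and Klre1 at 592 against 854 CPM, a ratio of 0.693 (0.605 to 0.790). Past 1.5-fold were 2 of 7 genes, both lower, Klrb1a and Klri1 (5 ILC1-like UMIs, 0.583, 0.185 to 1.41), beside 30.3% lower and 10.4% higher among 7403 genes. Under the definition that counts markers after thinning, Klri1 went to the other side of 1, so no direction is read from it. Klri2 had 0.824 (0.679 to 0.993), Klrb1f 1.15 (0.938 to 1.39) and Klrb1b 1.18 (0.828 to 1.63). The direction of Klrb1b rests on the make-up of the class: it was at 0.549 with Gzmc and 1.48 without in 3xTg-AD, and at 0.275 and 1.30 in wildtype. Centring took the count over all genes from 771 higher and 2244 lower to 1335 and 1383. After thinning, Klrb1a was found in 26.4% (17.6 to 37) of 87 wildtype ILC1-like barcodes and 8.45% (3.16 to 17.5) of 71 from 3xTg-AD, and in 63.3% and 16.9% before thinning. For Klrb1c the thinned shares were 55.2% (44.1 to 65.9) and 74.6% (62.9 to 84.2).

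Between the libraries, ILC1-like barcodes had Klrb1a lower and Klri2, Klrb1b and Klrb1c higher in 3xTg-AD. Klrb1a had 114 UMIs in 57 of 90 wildtype barcodes and 27 UMIs in 12 of 71 3xTg-AD barcodes, a ratio of 0.306 with an interval of 0.194 to 0.470. Of those 27 UMIs, 70.4% lay in 5 barcodes. Klri2 was at 138 CPM in wildtype and 298 CPM in 3xTg-AD, a ratio of 2.16 (1.60 to 2.93). After thinning, its shares were 19.5% (11.8 to 29.4) and 23.9% (14.6 to 35.5), with overlapping intervals, against 44.4% and 64.8% before. Klrb1c was at 649 and 1014 CPM, a ratio of 1.56 (1.35 to 1.81), and Klrb1b, with 21 and 40 UMIs, had 2.46 (1.42 to 4.40). Klrb1b was found in 19 barcodes of each library, and 50% of its 40 UMIs in 3xTg-AD lay in 5 barcodes. Its thinned shares, 4.60% (1.27 to 11.4) and 11.3% (4.99 to 21), had overlapping intervals. Genes of cytotoxic NK cells differed in this class too, and their part in the member ratios was not tested. Of 8 NK marker genes 1 was past 1.5-fold higher, Ncr1 at 1.70 (1.49 to 1.95), and 2 were lower like Klrb1a, Gzma at 0.342 (0.312 to 0.375) and Prf1 at 0.398 (0.280 to 0.554). Of 14 maturation genes 6 were measured. Of these 1 was past the fold lower, the granzyme gene Gzmb at 0.301 (0.272 to 0.333), and 1 higher, Thy1 at 1.81 (1.57 to 2.09). Under the minimum of 50 UMIs, Klrg1 and Itgam had 2 UMIs each in 3xTg-AD against 16 and 13. Emb and S1pr5, also under it, went the other way, with 26 and 8 against 16 and 7. Cd27, Cx3cr1, Zeb2 and Cma1, the rest of those under it, had fewer in 3xTg-AD, with 13, 1, 6 and 0 UMIs against 21, 5, 10 and 4. Klre1 had 1.27 (1.06 to 1.53) and Klrb1f 1.40 (1.07 to 1.85). Klri1 had 7 and 5 UMIs, under the minimum of 50. Of 6 measured genes 3 were thus past 1.5-fold higher and 1 lower, beside 4.9% higher and 5.51% lower among all 2430 genes with 50 UMIs. Summed over thinned barcodes, which left 2 genes with enough UMIs, 1 was past the fold.

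The Klrb1a difference was seen in ILC1-like barcodes with and without Gzmc, a split made because Gzmc levels of the class differed between the libraries. With a Gzmc UMI, Klrb1a had 56 UMIs in 29 of 47 wildtype barcodes and 7 UMIs in 5 of 21 3xTg-AD barcodes, a ratio of 0.300 (0.115 to 0.660). Without one, it had 58 UMIs in 28 of 43 and 20 UMIs in 7 of 50 barcodes, a ratio of 0.265 (0.151 to 0.447). Klri2 had ratios of 2.75 (1.77 to 4.29) and 1.81 (1.17 to 2.85) in these 2 parts, and Klrb1c 1.82 (1.47 to 2.26) and 1.42 (1.15 to 1.76). Klrb1b had 2.88 (0.733 to 11.9) on 5 and 6 UMIs with Gzmc and 1.63 (0.877 to 3.17) without, and both intervals include 1. Klrb1f was at 1.83 (1.16 to 2.84) with Gzmc and 1.06 (0.741 to 1.53) without, and Klre1 at 1.54 (1.16 to 2.03) and 1.10 (0.849 to 1.42). In NK barcodes of the same libraries Klrb1a had a ratio of 0.984. With 1 library a group, the spread between animals was not measured.

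The members were also compared between mature and less mature NK barcodes. Cd27- Klrg1+ NK barcodes (684 and 682) were set over Cd27+ Klrg1- ones (122 and 99). Negative means that no UMI was found, so the stages may be mixed. How far this changes the ratios was not measured. In wildtype 0 of the 7 members were past 1.5-fold in either direction, beside 11.3% higher and 7.49% lower among 5729 genes. In 3xTg-AD 1 was, Klri1, lower at 0.480 (0.265 to 0.920) on 50 against 15 UMIs, beside 13.3% higher and 7.84% lower among 5686 genes. Beside these shares, counts of 0 and 1 among 7 genes are no result about the members. Of 14 genes listed for maturation 7 were past the fold higher and 6 lower in wildtype, and of 13 measured in 3xTg-AD 8 were higher and 5 lower. That list includes Cd27 and Klrg1, which set the stages. It was also chosen with earlier results of these data known, so no contrast with the members is drawn from it. Cma1, a protease gene of mature NK cells, was at 618 against 187 CPM in wildtype (3.31, 2.63 to 4.22) and at 683 against 165 CPM in 3xTg-AD (4.13, 3.15 to 5.53). Ltb, a cytokine gene of less mature cells, had 0.0472 (0.0328 to 0.0668) and 0.0713 (0.0503 to 0.100). In wildtype Ltb was also higher in ILC1-like than in NK barcodes, at 697 against 103 CPM. The less mature stage held more barcodes close to the ILC1-like cut. In wildtype 11 of its 122 barcodes had 2 marker UMIs, against 3 of 684 Cd27- Klrg1+ ones, and in 3xTg-AD 6 of 99 against 5 of 682. Without ribosomal protein and mitochondrial genes in the total, the count over all genes went from 645 higher and 429 lower to 453 and 670 in wildtype, and from 756 and 446 to 580 and 618 in 3xTg-AD.

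Under the main settings, smaller differences had the same direction in both libraries for Klrb1a, Klri2, Klrb1f and Klrb1c. Klrb1a was at 426 CPM in Cd27- Klrg1+ against 349 CPM in Cd27+ Klrg1- barcodes of wildtype, a ratio of 1.22 (1.02 to 1.47). In 3xTg-AD it was at 426 against 294 CPM, a ratio of 1.45 (1.17 to 1.81). Over the settings the Klrb1a ratio ran from 1.06 (stages from thinned counts) to 1.24 (stages from at least 2 UMIs) in wildtype. In 3xTg-AD it ran from 1.34 (ILC1-like cut at 2 marker UMIs) to 2.67 (stages from at least 2 UMIs). Klri2 had the opposite order, with 168 against 211 CPM in wildtype (0.794, 0.627 to 1.01) and 300 against 438 CPM in 3xTg-AD (0.684, 0.570 to 0.825). Klrb1f had 204 against 273 CPM (0.749, 0.608 to 0.929) and 230 against 288 CPM (0.797, 0.639 to 1.0). With stages read from at least 2 UMIs, Klrb1f turned to 1.03 and 1.27, so its direction rests on the stage definition. Klri2 was also lower in Cd27- Klrg1+ than in Cd27- Klrg1- barcodes, where it stood at 226 CPM (204 to 249) in wildtype and 427 CPM (398 to 458) in 3xTg-AD. These last barcodes were shallower, with median UMIs of 2544 and 2518 against 3105.5 and 2998. Klrb1c had ratios of 1.18 (1.06 to 1.31) and 1.07 (0.972 to 1.19), and Klre1 0.95 (0.839 to 1.08) and 1.14 (1.0 to 1.31), in wildtype and 3xTg-AD. Klrb1b had 1.38 (0.852 to 2.35) and 0.904 (0.620 to 1.36), and its ratio moved between 0.513 and 1.79 over the settings in 3xTg-AD. Klri1 had 1.36 (0.579 to 3.88) in wildtype, the other side of 1 from 3xTg-AD, on 47 against 6 UMIs.

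**Figure D5:**
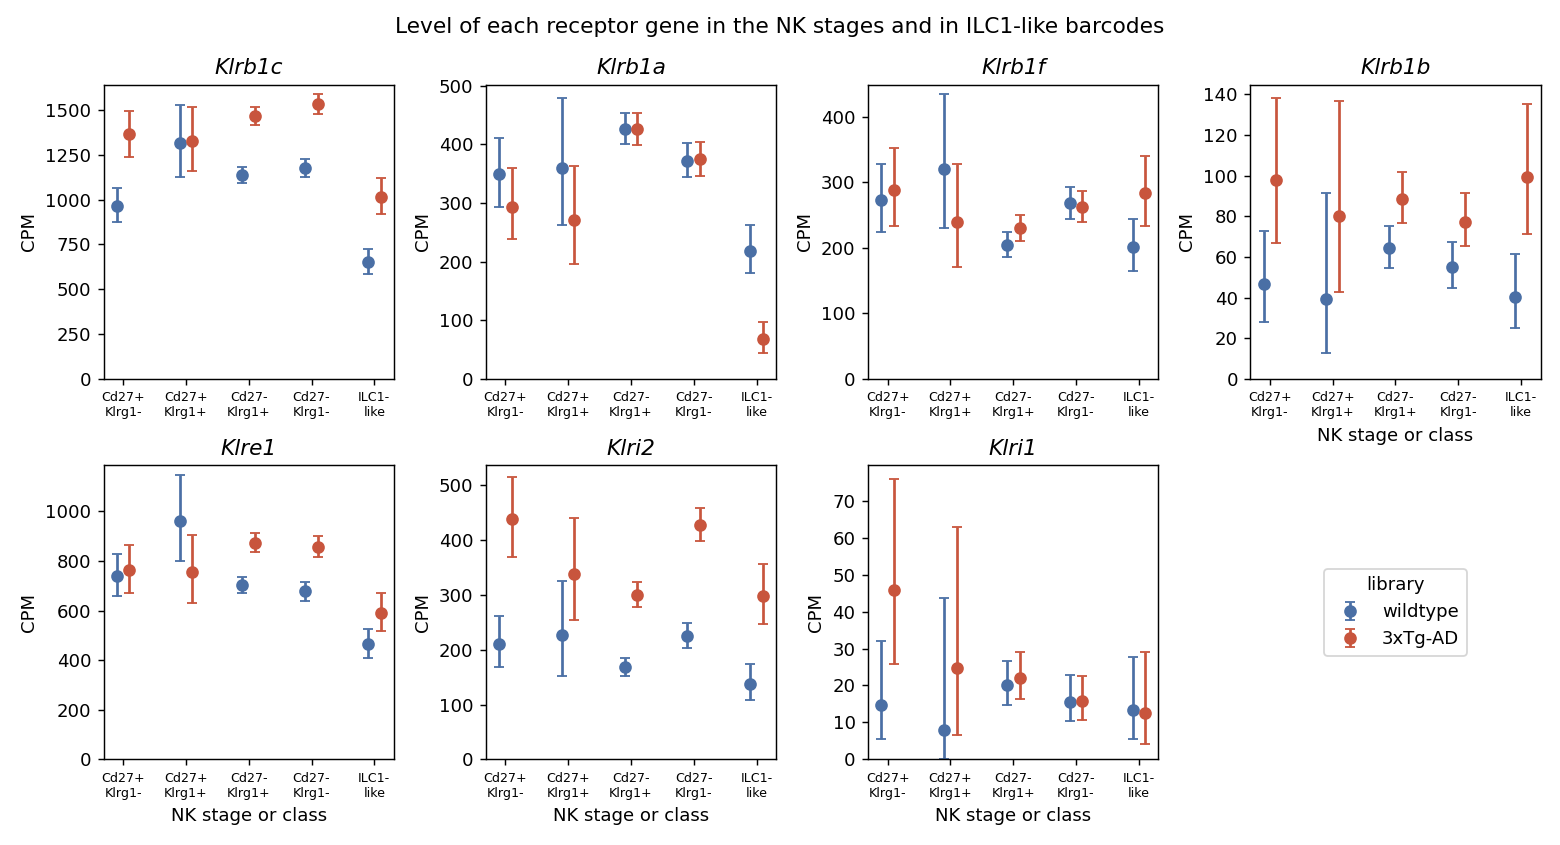
Level in CPM of each gene in the 4 NK stages and in ILC1-like barcodes, for wildtype (blue) and 3xTg-AD (red), with exact 95% Poisson intervals. Klri2 is higher in red in each of the 5 columns, and Klrb1a is highest in Cd27- Klrg1+ barcodes of both libraries, at 426 CPM in each, and lowest in ILC1-like ones.

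Barcodes usually held several of the receptors. At 1400 UMIs the median NK barcode held 2 of the 7 genes in wildtype and 3 in 3xTg-AD. No member was found in 3.44% of wildtype and 1.33% of 3xTg-AD NK barcodes, and 5 or more were found in few (38 and 59 barcodes with 5, 2 and 2 with 6). ILC1-like barcodes held a median of 2 in both libraries. Within NK barcodes the members were found together about as often as independent detection gives: for the 15 pairs without Klri1, observed over expected counts ran from 0.927 to 1.09 in wildtype and from 0.870 to 1.10 in 3xTg-AD. For 0 of 21 pairs in either library did the share of the other gene differ between positive and negative barcodes beyond both 95% intervals. Klrb1c was found in 77.1% of thinned wildtype and 85.1% of thinned 3xTg-AD NK barcodes, so its ratios cannot lie far above 1. At this depth many transcripts are missed, which brings pairs closer to independence. These values therefore do not show that the receptors are independent within cells. For Klre1 and its partner Klri2, 24.0% of Klre1-positive and 22.4% of Klre1-negative wildtype barcodes held Klri2, and 38.1% and 40.7% in 3xTg-AD.

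Over 10 profiles, the 4 NK stages and the ILC1-like barcodes of each library, the gene most like Klrb1c was Ncr1, which encodes the NK receptor NKp46 (Pearson r of log2(CPM + 10) 0.98, among 5599 genes with 200 UMIs). Ncr1 was at 1640 CPM in wildtype and 2216 CPM in 3xTg-AD NK barcodes. Klrb1a was most like Usp48, Ppp1r15b and H2-D1 (r 0.97, 0.97 and 0.96), and Klre1 most like A430078G23Rik, Gorasp2 and Tob1 (0.97, 0.97 and 0.96). For Klri2 these were Mob3a, Chordc1 and Mfap1b (0.93, 0.92 and 0.92), for Klrb1b Txndc12, Gpr180 and Psmc6 (0.93, 0.93 and 0.90), and for Klrb1f Adamts10, Ogt and Cbx7 (0.89, 0.88 and 0.84). Klri1 was under the minimum. Among members, Klrb1c and Klre1 were most alike (r 0.88), and Klrb1a and Klrb1b least (r -0.32). The 10 profiles share 2 libraries and a common depth order, so these values describe likeness in these libraries.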

How the data were processed

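Single-cell 5′ RNA-seq libraries of sorted brain NK cells were analysed, 1 wildtype and 1 3xTg-AD. The authors deposited UMI counts per gene and barcode, unnormalized. They used Cell Ranger 3.1.0, STAR and mm10, per the submitters' processing notes, while software version 3.0.2 stands in the matrices, per the file headers. The annotation release is not given there.

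Barcodes with 300 or more genes and at most 10% mitochondrial UMIs were kept, and Scrublet doublet calls (13 and 22) were left out. NK-lineage barcodes had at least 5 UMIs of Ncr1, Nkg7, Klrk1, Klrd1 and Prf1 and few markers of other lineages. They were ILC1-like with at least 3 UMIs of the 5 markers and NK otherwise. UMIs were summed per class, and ratios of CPM were given exact conditional binomial intervals (95%). No test was possible with 1 library per group. "Past the fold" means 1.5-fold on at least 100 UMIs over both sides (NK between libraries) or 50 (other comparisons). The limit from a count of 0 is 3 counts of the total. Intervals leave out variation between cells and animals. Thinning drew 1400 UMIs per barcode. Named genes were all members, the listed maturation, partner, ligand, NKG2 and marker genes, and the 3 genes most like each member. Members and lists were chosen with earlier results of these data known. Analyses used Python 3.11.15, scanpy 1.11.5, scipy 1.17.1, numpy 2.4.6 and Biopython 1.88, and were tested on simulated data. Alternatives covered filters, doublets, class and stage definitions, UMI minimum, normalization and thinning.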

Additional observations from a re-analysis of the deposited data

How the results depend on the processing

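No paired analysis was possible because each group has 1 library. Of 566 ratios of single members under alternative settings, 532 stayed within their main interval, 33 moved beyond it and 1 past the fold reversed. That was Klri1 in 3xTg-AD, ILC1-like over NK, with a log2 ratio of 0.71 when markers were counted after thinning. Klri2 in NK barcodes ran from 1.79 to 1.87 over the settings, and Klrb1a in ILC1-like barcodes from 0.237 to 0.454. The count of members past 1.5-fold in NK barcodes stayed at 1. In ILC1-like barcodes between libraries the 4 members became 1 with sums over thinned barcodes, where 2 were measured. For ILC1-like over NK in wildtype, the 3 members became 5 with an Ncr1 UMI required, 5 in barcodes with Gzmc and 1 in those without. In 3xTg-AD the 2 became 1 without ribosomal protein and mitochondrial genes and 1 when centred, and 4 with thinned sums and 4 without Gzmc. For maturation in wildtype, the count of 0 became 1 with ILC1-like cut at 2 marker UMIs, with Ncr1 required or with thinned sums. In 3xTg-AD the 1 became 0 with the UMI minimum doubled. It became 2 with ILC1-like cut at 5 marker UMIs, without ribosomal protein and mitochondrial genes, centred, with thinned sums, with stages from at least 2 UMIs and with stages from thinned counts. The causes were not tested. The Gzmc splits and the marker count after thinning were chosen after seeing the data.

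Over all genes, the 425 past the fold in NK barcodes became 695 with the UMI minimum halved and 226 with it doubled. The 253 in ILC1-like barcodes became 820, 72, 57 (thinned sums), 152 (markers after thinning) and 167 (without Gzmc). The 2479 for ILC1-like over NK in wildtype became 1639 with the minimum doubled. For maturation, 1074 in wildtype became 1861, 477, 680 (thinned sums) and 1620 (stages from at least 2 UMIs), and 1202 in 3xTg-AD became 2054, 514 and 747. Fewer genes pass a higher minimum by construction. Without ribosomal protein and mitochondrial genes, the higher and lower calls were 203 and 206 in NK barcodes between libraries, and 1127 and 1179 in wildtype and 1295 and 1342 in 3xTg-AD for ILC1-like over NK. Depth limits Klri1 most, with 5 to 98 UMIs per class and library.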

Other observations

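Receptor genes of other families and the genes Gzmb, Ly6c2 and Eomes were set beside the members in thinned NK barcodes. This gave 105 pairs of a member with 1 of 15 other genes, which were chosen after exploring the data. For 2 pairs the share of the other gene differed between member-positive and member-negative barcodes beyond both exact 95% intervals in the same direction in both libraries. Klrc1, which encodes the inhibitory receptor NKG2A, was found in 24.7% (20.1 to 29.8) of Klri2-positive and 36.3% (33.3 to 39.3) of Klri2-negative wildtype barcodes. In 3xTg-AD it was found in 21.4% (18 to 25) and 32.8% (29.7 to 36). Klra4, an Ly49 receptor gene, was found in 27.4% (19.1 to 36.9) of Klrb1b-positive and 39.95% (37.2 to 42.7) of Klrb1b-negative wildtype barcodes, and in 22.5% (15.9 to 30.3) and 43.1% (40.4 to 45.9) in 3xTg-AD. Klra genes have near-identical copies, so how reads were split among them is uncertain. The intervals cover counting error, and the pairs were not adjusted for their number.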
